A study of Emberiza bruniceps with 4 samples.

Results

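Heat shock proteins and chaperones are described here in the hypothalamus of a migratory songbird, the red-headed bunting (Emberiza bruniceps), from birds taken in the wild. Of 11943 protein names with counts, 76 were chosen by name: every name containing "heat shock", and every name that starts with T-complex protein 1 subunit, dnaJ homolog, BAG family molecular chaperone or prefoldin subunit. The names are those of collared flycatcher proteins, to which 50994 of the 507906 assembled contigs (stretches of transcript put together from the reads) had been matched, and the 76 names rested on 271 contigs.

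Chaperones hold newly made or damaged proteins and help them to fold. The 70 kDa heat shock proteins bind exposed stretches with the help of dnaJ partners, and BAG and related proteins release them again. The 90 kDa proteins mature kinases and steroid receptors, prefoldin hands actin and tubulin to the TRiC ring (the T-complex), and small heat shock proteins keep unfolded proteins from clumping. Heat shock factors are the transcription factors that switch many of these genes on.

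The study crossed gonadal state with season, and total RNA of the hypothalamus was sequenced from spring castrated, autumn castrated, spring intact and autumn intact birds. Each group was 1 library. The labels give no number of birds per library, no sex or age, and not how long after removal of the gonads the tissue was taken. The libraries held between 16840270 and 26213011 estimated counts, the most in autumn castrated birds, and between 39.11% and 41.65% of these lay on matched contigs. With no replicate the spread between birds of a group could not be measured, so a ratio compares 2 libraries, not 2 conditions.

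Levels are in CPM (counts relative to the matched total of a library, with TMM factors between libraries) and ratios are log2 of CPM after adding 0.5 CPM. A name is called 2-fold apart when the log2 ratio reaches 1 in size. Ranges in brackets are 95% counting intervals; they cover counting error alone, since reads lack molecular identifiers and need not be independent molecules. Of the 76 names, 72 averaged at least 1 CPM over the 4 libraries and were compared, 11 of them under 5 CPM. The other 4 were heat shock factor protein 5-like, dnaJ homolog subfamily C member 5B, heat shock protein beta-2 and heat shock protein beta-7-like, each with 12 or fewer counts in any library.

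Markers of brain regions, pituitary and myelin differed between castrated and intact libraries, and their levels stand beside every castration ratio given here. The summed level of 7 telencephalon and striatum markers was 342 (spring) and 363 CPM (autumn) in castrated libraries, against 1788 and 2108 CPM in intact libraries. Of the 7, 6 were at least 2-fold lower in castrated libraries in both seasons (9.6% of all names). The other, adenosine receptor A2a, held most of the castrated sums. It was nearly level, at 280.5 and 301.1 CPM in castrated libraries, against 312.7 and 309.3 CPM in intact libraries. For 7 hindbrain and midbrain markers it was 583 and 369 CPM in castrated libraries, against 10.8 and 10.3 CPM in intact libraries, where Hox-A3 and Hox-D3 had 0 counts. The sum of 6 pituitary markers was 742 and 505 CPM in castrated libraries, against 7.53 and 0.405 CPM in intact libraries. Myelin markers, of which 5 of 9 were matched, summed to 20520 and 17500 CPM in castrated libraries, against 9311 and 5419 CPM in intact libraries. Of 8 hypothalamus markers, 6 were matched, and they summed to 176 and 248 CPM in castrated libraries, against 64.5 and 55.2 CPM in intact libraries. Most of that difference was pro-opiomelanocortin, which is also in the pituitary sum. It held 89.3 and 196 CPM in castrated libraries, against 2.47 and 0.135 CPM in intact libraries. Among the 6 matched markers, 3 lay above 0 in both seasons (pro-opiomelanocortin, orexin and steroidogenic factor 1) and 1 below in both. That 1 was homeobox protein Nkx-2.1, at 2.29 and 1.29 CPM in castrated libraries, against 22.3 and 17.8 CPM in intact libraries. Gonadal state and the piece of tissue taken cannot be told apart, nor can the number of cells of a type and the RNA per cell.

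Taken as a sum, the 76 names held 17770 CPM in spring and 22730 CPM in autumn in castrated libraries, against 13890 and 13230 CPM in intact libraries. Heat shock protein HSP 90-alpha alone was 42.4% (spring) and 43.98% (autumn) of that sum in castrated libraries, against 31.0% and 32.5% in intact libraries. Without it the sum was 10230 and 12730 CPM in castrated libraries, against 9586 and 8933 CPM in intact libraries. The autumn castrated library was the highest in each of these sums.

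Castrated over intact, the 72 names had a median log2 ratio of 0.18 in spring and 0.44 in autumn, where all 10559 names compared had medians of 0.01 and -0.01. In spring 5 members were at least 2-fold higher (8.61% of all names were) and 5 at least 2-fold lower (14.6% of all names). In autumn 14 were higher (12.3% of all names) and 6 lower (15.2% of all names). In both seasons 5 were higher (4.51% of all names), namely heat shock proteins beta-1 and beta-8, the mitochondrial 10 kDa heat shock protein, dnaJ homolog subfamily B member 2 and dnaJ homolog subfamily C member 12. Lower in both seasons were 2 (9.6% of all names), BAG family molecular chaperone regulator 5 and heat shock factor protein 4. At any size, 32 members lay above 0 in both seasons (44.4%; 38.2% of all names) and 19 below 0 in both (38.4% of all names).

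**Figure D1:**
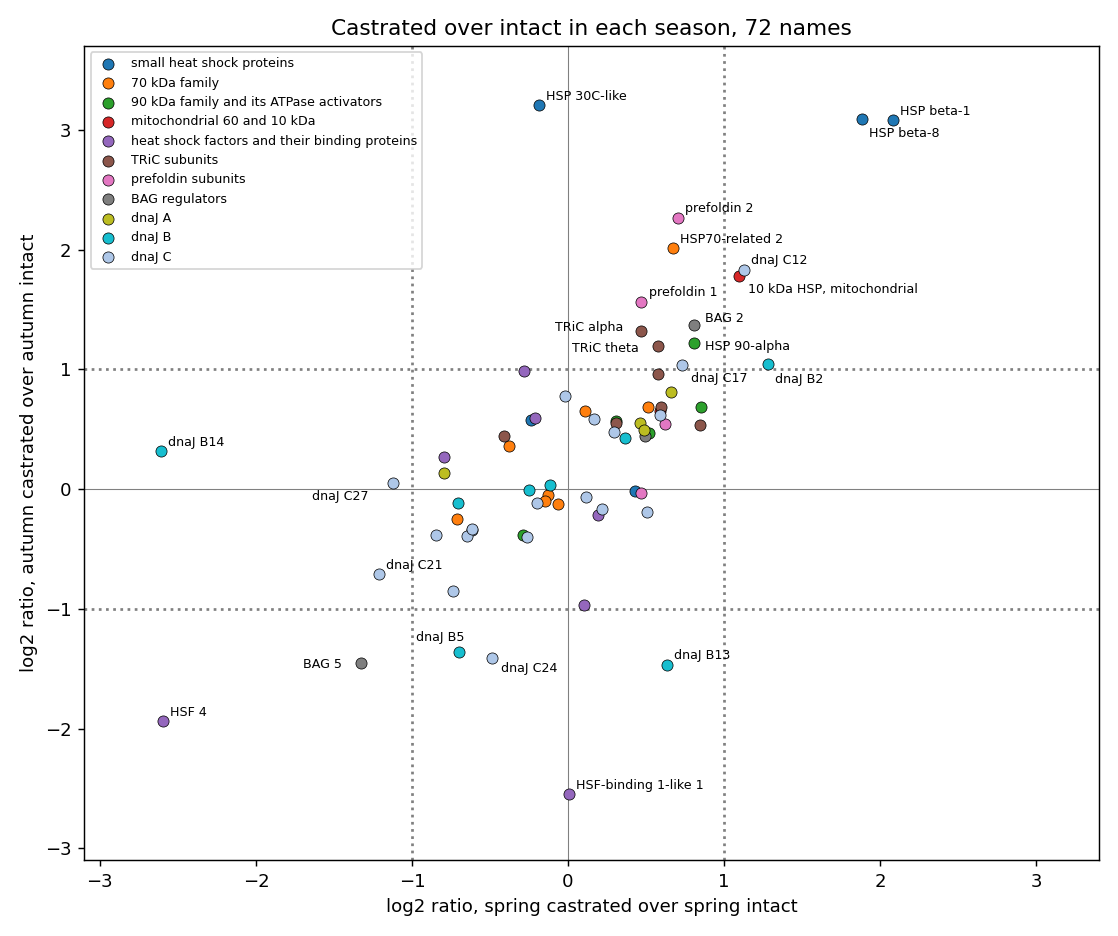
Log2 ratio of castrated over intact for the 72 chaperone names, with the spring pair of libraries across and the autumn pair up, coloured by class; HSP is heat shock protein, HSF heat shock factor, BAG a BAG regulator and TRiC the T-complex, and dotted lines mark 2-fold. HSP beta-1 and HSP beta-8 lie far to the upper right, HSP 30C-like lies at 3.21 in autumn and -0.19 in spring, and dnaJ B14 is low in spring at -2.61 and near 0 in autumn at 0.32.

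Counted without a size rule, both castrated libraries were above both intact ones for 31 members (43.1%; 32.9% of all names) and below both for 17 (23.6%; 33.8% of all names). An additive fit of season and gonadal state over the 4 libraries in edgeR was the only test that could be made. It had 1 residual degree of freedom, with any interaction of season and gonadal state as its error. The error of each name was also drawn toward a trend over all names compared. The fit thus gives p values that do not rest on a name's own counts alone and do not measure the spread between birds. At a Benjamini-Hochberg adjusted p under 0.05 it called 15 members higher (8.09% of all names) and 4 lower (14.3% of all names) in castrated libraries.

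The classes differed in where their ratios lay. Castrated over intact, the medians in spring and autumn were 0.43 and 3.08 for 5 small heat shock proteins and 0.84 and 1.21 for the mitochondrial 60 and 10 kDa pair. TRiC subunits had 0.58 and 0.68 over 7 names, prefoldin subunits 0.55 and 1.05 over 4, the 90 kDa family with its ATPase activators 0.52 and 0.57 over 5, and dnaJ subfamily A 0.47 and 0.52 over 4. The 3 BAG regulators had medians of 0.50 and 0.44. The medians differed in sign between seasons in the 70 kDa family, at -0.10 and 0.15 over 8 names, and in dnaJ subfamily B, at -0.18 and 0.01 over 8. They were below 0 in both seasons in dnaJ subfamily C, at -0.20 and -0.17 over 19 names. The heat shock factors with their binding proteins had -0.21 and -0.22 over 7, of which 3 lay above 0 and 4 below in each season. No test sets 1 class against another here.

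**Figure D2:**
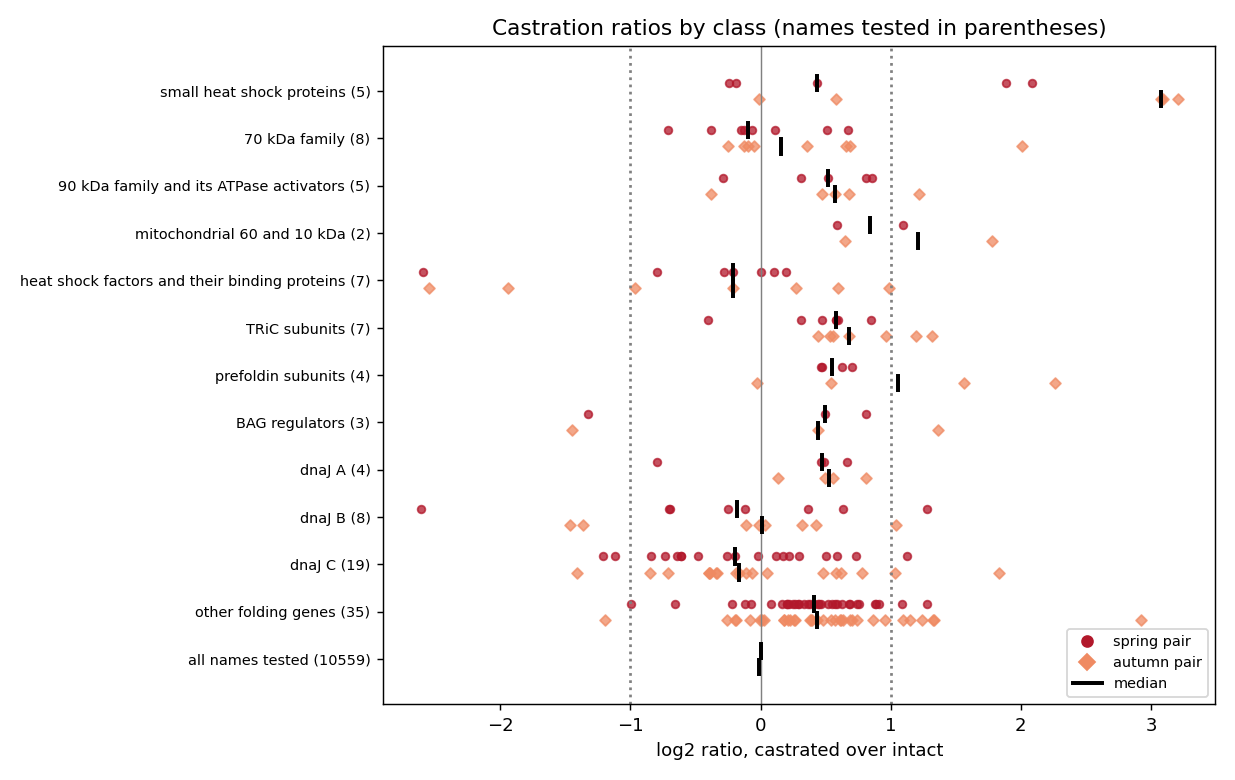
Log2 ratio of castrated over intact for each chaperone name by class, with circles for the spring pair, diamonds for the autumn pair and black bars for the medians; a list of other folding genes and the medians of all names stand at the foot. TRiC and prefoldin names lie mostly above 0, whereas dnaJ B, dnaJ C and the heat shock factors lie on both sides.

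Among the small heat shock proteins, beta-1 and beta-8 were higher in castrated libraries in both seasons. Heat shock protein beta-1, which caps unfolded proteins and actin filaments, stood at 39.4 CPM in spring and 37.9 CPM in autumn in castrated libraries, against 8.90 and 4.05 CPM in intact libraries. Its log2 ratios were 2.08 (1.75 to 2.56) in spring and 3.08 (2.69 to 3.81) in autumn, and the additive edgeR fit gave an adjusted p of 0.00791. Heat shock protein beta-8, which works with BAG3 in clearing misfolded proteins, stood at 32.2 and 42.9 CPM in castrated libraries, against 8.36 and 4.59 CPM in intact libraries. That is 1.89 (1.53 to 2.38) and 3.09 (2.72 to 3.77) on the log2 scale, with an adjusted p of 0.0112 in the additive edgeR fit. For both genes the 2 castrated libraries were close to each other and the autumn intact library was the lowest of the 4. The summed myelin markers had the autumn intact library lowest as well, at 5419 CPM, and their part in these ratios was not tested.

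Heat shock protein 30C-like, named after a small heat shock protein of Xenopus, was high in 1 library. It held 4.87 CPM in spring and 107 CPM in autumn in castrated libraries, against 5.62 and 11.2 CPM in intact libraries. The autumn ratio was 3.21 on the log2 scale and the spring ratio -0.19 (-0.91 to 0.48). Of its counts over the 4 libraries, 91.9% lay on 1 contig of 564 bases, which had 1014 counts in the autumn castrated library and 78 in the autumn intact one. The additive edgeR fit, which assumes the same ratio in both seasons, gave an adjusted p of 0.177. The remaining names of the class were scarce: beta-7 stood at 2.58 and 3.07 CPM in castrated libraries against 1.78 and 3.11 CPM in intact libraries, and beta-3 at 1.43 and 3.47 CPM in castrated libraries against 1.78 and 2.16 CPM in intact libraries.

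In the 70 kDa family 1 of 8 names was 2-fold apart between castrated and intact libraries, and it was higher in autumn (12.3% of all names were). Heat shock-related 70 kDa protein 2, known in mammals for its role in sperm formation and also found in brain, stood at 402 and 1258 CPM in castrated libraries, against 252 and 312 CPM in intact libraries. The log2 ratio was 0.67 (0.59 to 0.76) in spring and 2.01 (1.95 to 2.08) in autumn, with an adjusted p of 0.0357 in the additive edgeR fit. Both castrated libraries were above both intact ones, and the autumn castrated library was far above the other 3. Its counts were split almost evenly over 2 contigs of 1510 and 871 bases, each 99.7% identical to the flycatcher protein, and both contigs showed the same order of libraries. Members of the 70 kDa family resemble each other in sequence, so reads may have been shared with relatives that are not analysed here. No heat shock cognate protein was among the matched names of this family.

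The larger relatives, which act as nucleotide exchange factors for the 70 kDa proteins, lay closer together. Heat shock 70 kDa protein 4 stood at 0.51 (0.44 to 0.59) in spring and 0.69 (0.62 to 0.76) in autumn on the log2 scale, castrated over intact. Heat shock 70 kDa protein 4L had opposite signs, at -0.38 (-0.46 to -0.30) in the spring pair and 0.36 (0.28 to 0.44) in the autumn pair. In the last 5 names of the family, among them 12A, 12B, 13 and 14, the ratios lay between -0.71 and 0.11 in spring and between -0.25 and 0.66 in autumn.

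HSP 90-alpha, the inducible 90 kDa protein of the cytosol, was the most abundant chaperone per length, with a mean of 568 TPM (the authors' length-corrected share of transcripts). It held 7533 CPM in spring and 9996 CPM in autumn in castrated libraries, against 4303 and 4299 CPM in intact libraries. The 2 intact libraries were level and both castrated ones were higher, at 0.81 (0.79 to 0.83) for the spring pair and 1.22 (1.20 to 1.24) for the autumn pair on the log2 scale, with an adjusted p of 0.0208 in the additive edgeR fit. Its counts were large, so the counting interval is narrow, and the spread between birds, which was not measured, is the limit. Nearly all of them, 99.9%, lay on 1 contig of 3595 bases.

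HSP 90-beta, the constitutive partner of HSP 90-alpha, was on the other side, with log2 ratios of -0.29 (-0.42 to -0.16) and -0.38 (-0.50 to -0.27) and an adjusted p of 0.187. Activator of 90 kDa heat shock protein ATPase homolog 1 speeds up the ATPase of the 90 kDa proteins. It stood at 333 and 342 CPM in castrated libraries, against 184 and 213 CPM in intact libraries (log2 0.86 and 0.68, adjusted p of 0.0215 in the additive edgeR fit). The second activator had log2 ratios of 0.31 and 0.57, and the mitochondrial 75 kDa member, known as TRAP1, had 0.52 and 0.47.

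The mitochondrial folding chamber consists of a 60 kDa barrel and a 10 kDa lid, and both were higher in castrated libraries. The 10 kDa heat shock protein stood at 151 and 242 CPM in castrated libraries, against 70.3 and 70.5 CPM in intact libraries. Log2 ratios were 1.10 (0.95 to 1.26) in spring and 1.77 (1.65 to 1.92) in autumn, with an adjusted p of 0.00962 in the additive edgeR fit. The 60 kDa heat shock protein stood at 810 and 782 CPM in castrated libraries, against 538 and 499 CPM in intact libraries. Its ratios of 0.59 and 0.65 (adjusted p of 0.0354) stayed under 2-fold. The lid was higher in autumn than in spring among castrated libraries, whereas the barrel was level there. Under the alternative settings the castration ratio of the lid lay between 1.15 and 1.94 in autumn and between 1.04 and 1.135 in spring. How far that ratio differed between seasons thus depended on the processing.

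**Figure D3:**
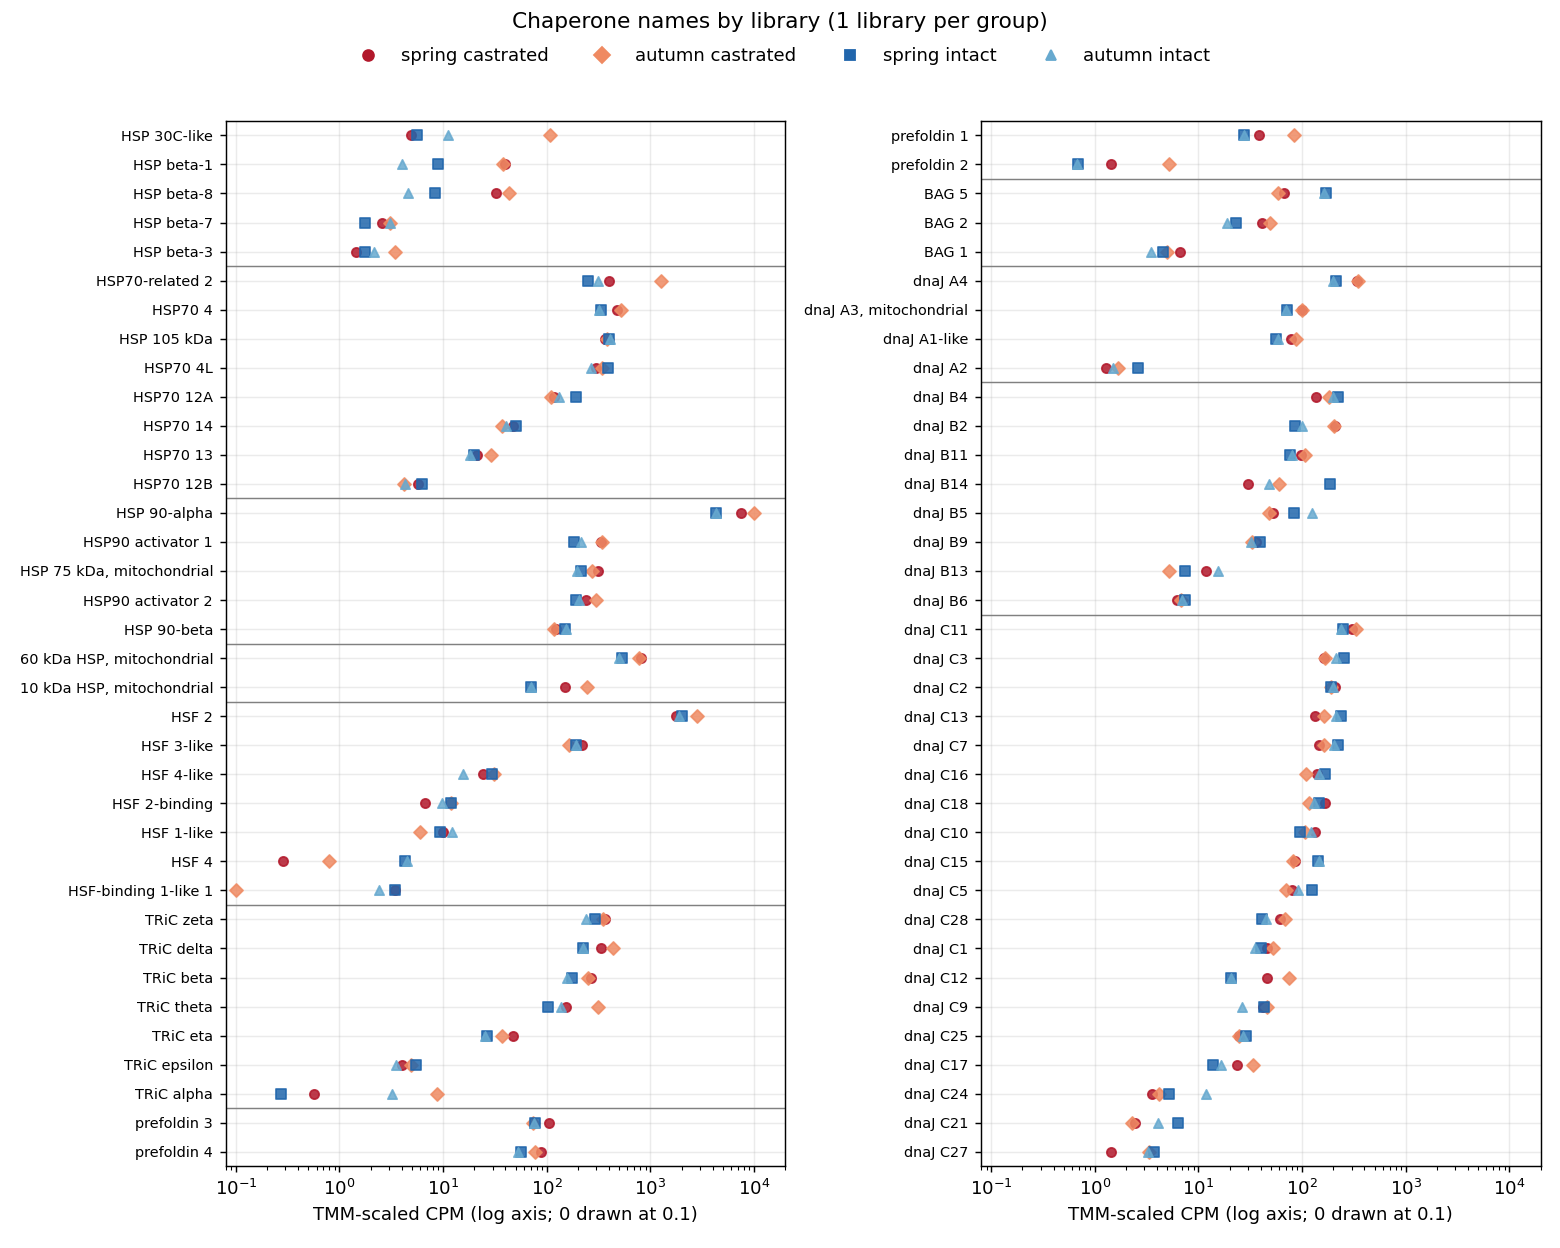
Level of each of the 72 chaperone names in the 4 libraries, in TMM-scaled CPM on a log axis, with a marker for each library and lines between classes; HSP, HSF and TRiC are short for heat shock protein, heat shock factor and T-complex. HSP 90-alpha is at the right with 4299 to 9996 CPM, the circle and diamond of HSP beta-1 and HSP beta-8 lie to the right of the square and triangle, and the 0 of HSF-binding 1-like 1 in the autumn castrated library is drawn at 0.1.

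The heat shock factors and their binding proteins lay on both sides of 0. In spring 0 of 7 were called higher in castrated libraries (8.61% of all names) and 1 lower (14.6% of all names). In autumn 0 were called higher (12.3% of all names) and 2 lower (15.2% of all names). Heat shock factor protein 2 was the most abundant name of the class at 1762 and 2830 CPM in castrated libraries, against 2043 and 1872 CPM in intact libraries. The autumn castrated library was the highest and the spring castrated library the lowest, and the adjusted p of castration in the additive edgeR fit was 0.589. Its counts lay mainly on 2 contigs, of 5929 bases with 55.0% of them and of 5947 bases with 44.1%, and the protein match covers 27.7% and 27.9% of these contigs. On the first, the autumn castrated library had 18870 counts and the autumn intact library 5097, whereas on the second they had 9566 and 8590. These counts are not scaled, and the matched totals of the 2 libraries were 10918845 and 7122813. Relative to these totals, the autumn castrated library was higher on the first contig and lower on the second.

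Heat shock factor protein 4, best known from the vertebrate lens, had 2 counts in spring and 8 in autumn in castrated libraries, against 31 and 33 in intact libraries. Its log2 ratios of -2.59 (-7.00 to -1.92) and -1.94 (-3.82 to -1.35) rest on few reads, and the additive edgeR fit gave an adjusted p of 0.0300. Factor 4-like, a separate flycatcher protein, stood at 24.5 and 31.2 CPM in castrated libraries, against 29.9 and 15.5 CPM in intact libraries, with only the autumn intact library low. Factor 3-like, of a factor known from chicken to respond to heat, differed by 0.20 and -0.22 on the log2 scale and factor 1-like by 0.10 and -0.97. Heat shock factor 2-binding protein differed by -0.80 in spring and 0.27 in autumn.

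Heat shock factor-binding protein 1-like protein 1 had 24 counts in spring and 0 in autumn in castrated libraries, against 25 and 18 counts in intact libraries. Against a floor of 3 counts in the autumn castrated library, which is 0.297 CPM, it was 8.18-fold lower there than in the autumn intact library. That figure takes the 18 counts as exact, and the counting interval of the log2 ratio reached up to -2.58. In the 3 libraries with counts it lay between 18 and 25 counts, and an estimate of 0 can also arise when reads are shared among similar contigs.

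TRiC is a ring of different subunits, of which 7 were matched, and 6 of the 7 lay above 0 in both seasons, as did 38.2% of all names. T-complex protein 1 subunit delta stood at 337 and 441 CPM in castrated libraries, against 225 and 226 CPM in intact libraries (log2 0.58 and 0.96, adjusted p of 0.0273 in the additive edgeR fit). Subunit beta stood at 265 and 252 CPM in castrated libraries, against 175 and 157 CPM in intact libraries, with log2 ratios of 0.60 and 0.68. Subunit zeta differed by 0.31 and 0.55, and subunit eta by 0.85 and 0.53. In these 4 subunits, and in subunit theta, both castrated libraries were above both intact ones, as they were for 32.9% of all names.

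Subunit theta was highest in the autumn castrated library. It held 154 and 316 CPM in castrated libraries, against 103 and 138 CPM in intact libraries, or 0.58 (0.45 to 0.72) and 1.19 (1.09 to 1.30) on the log2 scale. Its counts moved between 2 contigs that are matched to different isoforms of the protein. The first had 301 and 2973 counts in castrated libraries against 277 and 486 in intact libraries, and the second 749 and 146 in castrated libraries against 439 and 472 in intact libraries. Only the autumn castrated library had most of its counts on the first by a wide margin. Subunit epsilon was scarce, at 4.01 and 4.95 CPM in castrated libraries against 5.48 and 3.51 CPM in intact libraries. Subunit alpha had 4 and 89 counts in castrated libraries, against 2 and 24 in intact libraries, on a single contig.

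**Figure D4:**
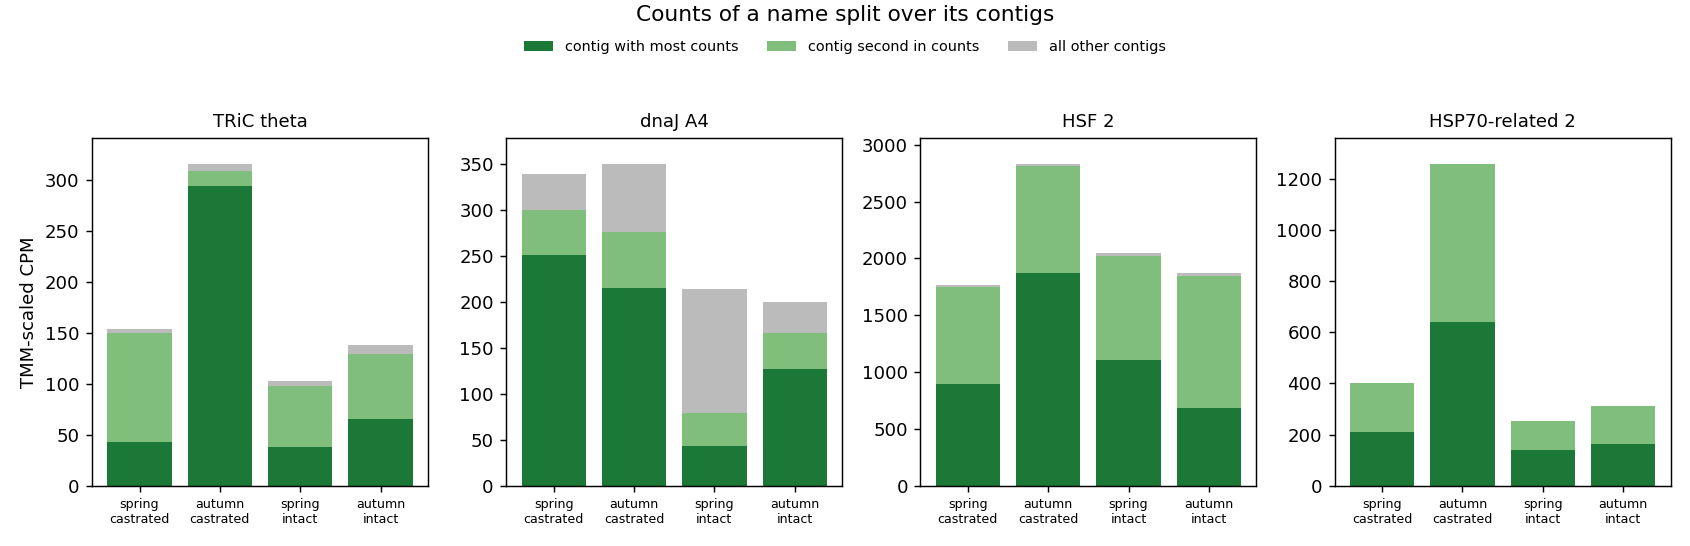
TMM-scaled CPM of 4 names in each library, split into the contig with the most counts over all libraries, the second contig and all others, with 1 library per bar. In TRiC theta, dnaJ A4 and HSF 2 the share of the leading contig differs between libraries, whereas HSP70-related 2 (heat shock-related 70 kDa protein 2) is split alike in all 4.

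Prefoldin, the jaw-like complex that delivers actin and tubulin, was represented by 4 subunits. Prefoldin subunit 1 stood at 38.4 and 82.8 CPM in castrated libraries, against 27.5 and 27.7 CPM in intact libraries, with log2 ratios of 0.47 (0.21 to 0.75) and 1.56 (1.36 to 1.81). Subunit 2 had 10 and 52 counts in castrated libraries, against 5 in each intact library, on a contig of 236 bases. Subunits 1 and 2 were thus highest in the autumn castrated library, and their adjusted p values in the additive edgeR fit were 0.0643 and 0.103. Subunit 4 differed by 0.63 and 0.54, and subunit 3 by 0.47 in spring and -0.03 in autumn. 

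The 3 BAG regulators, which release clients from 70 kDa proteins, went different ways. BAG family molecular chaperone regulator 5, which in mammals holds back the 70 kDa proteins and the ubiquitin ligase parkin, stood at 67.3 and 59.1 CPM in castrated libraries, against 170 and 163 CPM in intact libraries. The 2 libraries of each gonadal state were close to each other, and the log2 ratios were -1.33 (-1.49 to -1.18) and -1.45 (-1.60 to -1.32), with an adjusted p of 0.00469 in the additive edgeR fit, the smallest among the chaperones. Regulator 2, a brake on the ubiquitin ligase CHIP, stood at 40.9 and 49.5 CPM in castrated libraries, against 23.2 and 18.9 CPM in intact libraries (log2 0.81 and 1.37, adjusted p of 0.0340). Regulator 1 had 50 or fewer counts in each library and differed by 0.50 and 0.44.

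The dnaJ proteins stimulate the ATPase of 70 kDa proteins and bring them their clients. Subfamily A, closest to the bacterial form, lay mostly on the higher side: members 4, 3 and 1-like differed by 0.66, 0.49 and 0.46 in spring and by 0.81, 0.49 and 0.56 in autumn. Member 2 was scarce, with 19 or fewer counts in each library. DnaJ homolog subfamily A member 4 had 317 of its counts on its leading contig in the spring intact library, against 772 on another contig of 1661 bases. In the spring castrated library the leading contig had 1751 counts and that other contig 56. The values given here are sums over its contigs.

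In subfamily B, member 2, a form enriched in neurons of mammals that sorts clients toward the proteasome, was higher in both seasons. DnaJ homolog subfamily B member 2 stood at 207 and 205 CPM in castrated libraries, against 84.8 and 99.5 CPM in intact libraries. Its log2 ratios were 1.28 (1.15 to 1.42) and 1.04 (0.92 to 1.17), with an adjusted p of 0.00830 in the additive edgeR fit, and the autumn ratio was 0.55 when the authors' TPM were used and under 1 with library totals in place of TMM. Member 5 was lower, at 51.8 and 48.4 CPM in castrated libraries against 84.4 and 125 CPM in intact libraries (log2 -0.70 and -1.36, adjusted p of 0.0252). Members 4, 6, 9 and 11 lay between -0.71 and 0.37 in spring and between -0.12 and 0.42 in autumn. Member 13 stood at 0.63 (0.15 to 1.19) in spring and was called lower in autumn at -1.47 (-2.05 to -1.07). It had 114 or fewer counts in each library, and its autumn ratio was as small as -0.65 under the alternative settings.

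Member 14 of subfamily B, an endoplasmic reticulum form, was high in 1 library. It stood at 30.1 and 60.1 CPM in castrated libraries, against 186 and 48.2 CPM in intact libraries. The spring ratio was -2.61 (-2.85 to -2.42) and the autumn ratio 0.32 (0.13 to 0.51) on the log2 scale. The spring intact library was thus far above the other 3, and 96.8% of the counts of this name lay on 1 contig.

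In subfamily C the members were spread over both sides of 0. DnaJ homolog subfamily C member 12, which in humans binds the hydroxylases of phenylalanine, tyrosine and tryptophan, stood at 45.8 and 74.3 CPM in castrated libraries, against 20.7 and 20.5 CPM in intact libraries. The log2 ratios were 1.13 (0.86 to 1.44) and 1.83 (1.60 to 2.12), with an adjusted p of 0.0149 in the additive edgeR fit, and the spring ratio was 0.71 when the authors' TPM were used and under 1 with its most abundant contig alone. Tryptophan 5-hydroxylase 2, one of the hindbrain and midbrain markers and the enzyme that starts serotonin synthesis in neurons, stood at 126 and 99.7 CPM in castrated libraries, against 7.26 and 6.75 CPM in intact libraries. Whether the cells that carry this enzyme account for the level of member 12 was not tested.

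DnaJ homolog subfamily C member 15, of the inner mitochondrial membrane, was lower, with log2 ratios of -0.74 (-0.89 to -0.59) and -0.85 (-0.99 to -0.72), with an adjusted p of 0.0227 in the additive edgeR fit. Member 13, which acts on endosomes, stood at -0.84 and -0.39, with an adjusted p of 0.0613. Member 5, the cysteine string protein of synaptic vesicles, stood at -0.64 and -0.40, and member 3, a brake on the protein kinases of the unfolded protein response, at -0.61 and -0.34. In all 4 of these names both castrated libraries were below both intact ones in CPM, as they were for 33.8% of all names. In the authors' TPM this did not hold for member 13, whose counts lay on 23 contigs. Its TPM were 7.81 and 17.6 in castrated libraries, against 11.9 and 10.8 in intact libraries. Members 21 and 27 were called lower in spring at -1.21 and -1.12, on 46 or fewer counts in each library. Member 17 was called higher in autumn at 1.03. In the authors' TPM it was nearly level in autumn and apart in spring, at 15.65 and 16.5 in castrated libraries, against 7.84 and 15.9 in intact libraries. Member 24 was called lower in autumn at -1.41 (-2.08 to -0.97), a ratio of -0.39 under stricter protein matches.

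Other folding genes outside the 76 names lay on the higher side as well. Of 50 listed, 35 could be compared, and their median ratio, castrated over intact, was 0.41 in spring and 0.43 in autumn; 28 lay above 0 in both seasons (80.0%; 38.2% of all names) and 4 below 0 in both (38.4% of all names). Higher by at least 2-fold in both seasons were 2 of the 35 (4.51% of all names), and none was lower in both (9.6% of all names). Clusterin, a secreted chaperone, stood at 956 and 1001 CPM in castrated libraries, against 394 and 469 CPM in intact libraries (log2 1.28 and 1.09, adjusted p of 0.00634 in the additive edgeR fit). Alpha-crystallin B chain, a small heat shock protein by structure that is abundant in oligodendrocytes, stood at 105.1 and 182.6 CPM in castrated libraries, against 49.2 and 23.6 CPM in intact libraries. Its log2 ratios were 1.09 and 2.92. Of 4 genes named from the endoplasmic reticulum, the 78 kDa glucose-regulated protein differed by 0.45 and 0.62 and endoplasmin by 0.38 and 0.26. Peptidyl-prolyl cis-trans isomerase B stood at 0.63 and 1.33, and protein disulfide-isomerase A5 at -0.997 and -1.20.

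The autumn castrated library held the highest level of the 4 for 27 of the 72 chaperones (37.5%), where it was highest for 28.4% of all names. The autumn intact library was highest for 9 (12.5%; 21.5% of all names). The 14 autumn calls on the higher side (12.3% of all names) include 5 called in both seasons (4.51% of all names). The other 9 were under 2-fold in spring, among them 30C-like, heat shock-related 70 kDa protein 2, HSP 90-alpha, TRiC alpha and theta and prefoldin 1 and 2. Whether the castration ratio itself differed between seasons could not be tested with 1 library per group.

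Spring over autumn, the chaperones differed less. Among intact libraries the median log2 ratio of the 72 names was 0.08 (0.03 for all names), with 2 at least 2-fold higher in spring (2.6% of all names) and 3 lower (4.39% of all names). Among castrated libraries the median was -0.12 (0.00 for all names), with 2 higher (2.51% of all names) and 8 lower (5.42% of all names). In both gonadal states 0 were higher (0.246% of all names) and 1, TRiC alpha, was lower (0.635% of all names). The additive edgeR fit called 0 members for season at an adjusted p under 0.05 in either direction, as it called 0.0% of all names, and at an unadjusted p under 0.05 it had 0 higher (2.54% of all names) and 4 lower (2.55% of all names). The seasonal and the castration ratios share libraries, so the high autumn castrated library enters both.

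**Figure D5:**
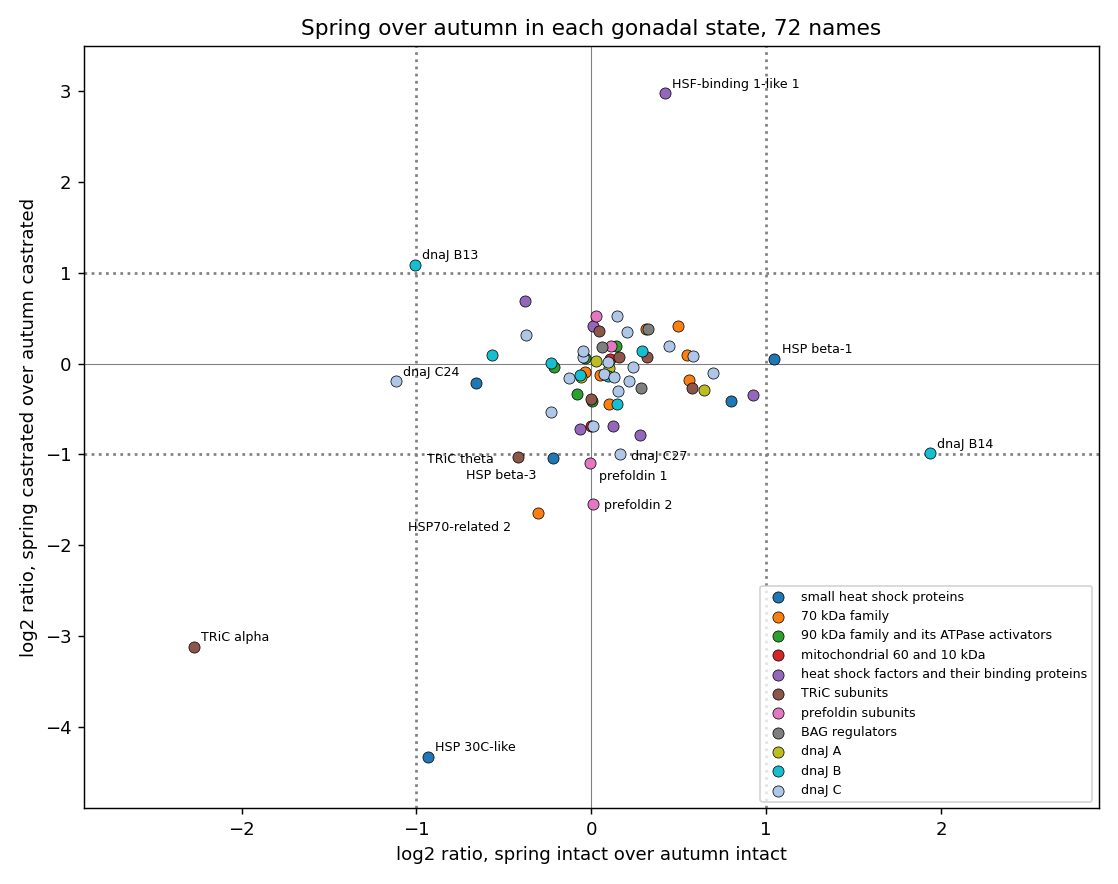
Log2 ratio of spring over autumn for the 72 chaperone names, with the intact pair of libraries across and the castrated pair up, coloured by class; dotted lines mark 2-fold. Most names lie within 2-fold on both axes, HSP 30C-like is at -4.33 in the castrated pair, TRiC alpha is low on both axes, and dnaJ B13 lies at opposite signs.

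T-complex protein 1 subunit alpha had 4 counts in the spring and 89 in the autumn castrated library, and 2 in the spring and 24 in the autumn intact library. Its log2 ratio was -3.12 (-5.85 to -2.54) in castrated and -2.27 (-6.69 to -1.55) in intact libraries, spring over autumn. These counts were low for a subunit of an abundant complex, and its single contig of 1029 bases was matched over 36.7% of its length.

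The 8 seasonal calls on the lower side among castrated libraries were led by 30C-like at -4.33, TRiC alpha and heat shock-related 70 kDa protein 2 at -1.65 (-1.71 to -1.59). Prefoldin subunit 2 stood at -1.55, and prefoldin subunit 1 at -1.10 (-1.31 to -0.91), which was -0.94 with library totals in place of TMM. TRiC theta stood at -1.03 (-1.14 to -0.94), which was -0.86 with TPM. The last 2, heat shock protein beta-3 at -1.04 and dnaJ C27 at -1.001, had 35 or fewer counts in each library. In the other direction, heat shock factor-binding protein 1-like protein 1 was 11.6-fold higher in the spring than in the autumn castrated library, against a floor of 3 counts. The counting interval of this log2 ratio reached down to 3.12. DnaJ B13 was the other name called higher in spring there, at 1.09. Among those under 2-fold, heat shock factor protein 1-like stood at 0.69, dnaJ C18 at 0.53, prefoldin subunit 3 at 0.52 and heat shock factor protein 3-like at 0.42.

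Among intact libraries the largest seasonal ratio on the higher side was that of dnaJ B14, at 1.94 (1.78 to 2.12). Heat shock protein beta-1 followed at 1.05 (0.49 to 1.81), which was 0.85 when 2 CPM were added in place of 0.5. Heat shock factor protein 4-like at 0.92, dnaJ C9 at 0.69 and heat shock 70 kDa protein 4L at 0.56 were under 2-fold. On the lower side dnaJ C24 stood at -1.12 (-1.78 to -0.63), which was -0.39 under stricter protein matches, and 30C-like at -0.94 (-1.57 to -0.44).

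DnaJ homolog subfamily B member 13, a protein of the axoneme of cilia and sperm in mammals, had opposite seasonal ratios. It stood at 11.7 CPM in the spring and 5.25 CPM in the autumn castrated library, and at 7.40 CPM in the spring and 15.4 CPM in the autumn intact library. The log2 ratio, spring over autumn, was 1.09 (0.65 to 1.69) in castrated and -1.01 (-1.55 to -0.58) in intact libraries. Both were under 2-fold in some alternatives, at 0.55 in castrated libraries with TPM and at -0.79 in intact libraries with its most abundant contig. Forkhead box protein J1, the transcription factor of ciliated cells, stood at 15.0 (spring) and 11.6 CPM (autumn) in castrated and at 9.18 (spring) and 28.8 CPM (autumn) in intact libraries. Transthyretin, the choroid plexus product in the same list, stood at 805 and 1746 CPM in the castrated and at 239 and 7622 CPM in the intact libraries. The autumn intact library was thus highest for all 3 genes. Among castrated libraries transthyretin was higher in autumn, whereas member 13 was higher in spring. Forkhead box protein J1 stood at 0.36 (-0.02 to 0.77) there on the log2 scale, spring over autumn, with an interval that includes 0. The part of ciliated cells in the member 13 ratios was not tested.

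Per length, the 10 highest chaperones after averaging TPM over the 4 libraries began with HSP 90-alpha at 568 TPM and heat shock 70 kDa protein 4 at 281 TPM. They went on with dnaJ A4 at 257 TPM, heat shock-related 70 kDa protein 2 at 190 TPM, dnaJ B2 at 130 TPM and heat shock factor protein 2 at 115 TPM. TRiC zeta had 99.1 TPM, the 60 kDa protein 77.0 TPM, HSP 90-beta 75.3 TPM and TRiC delta 67.2 TPM. Short contigs weigh heavily in this order. In the spring castrated library a contig of 209 bases gave 283 of the 341 TPM of heat shock 70 kDa protein 4, a contig of 261 bases gave 228 of the 291 TPM of dnaJ A4, and one of 366 bases gave 142 of the 191 TPM of dnaJ B2. HSP 90-alpha, in contrast, drew 640 of its 642 TPM there from its contig of 3595 bases.

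Each value rests on how contigs were assembled and matched. Of the 76 names, 22 lay on 1 contig and 2 on 10 or more, and 66 had a leading contig at least 90% identical to the flycatcher protein. Leading contigs had a median length of 1540 bases, against 2045 bases over all names compared. Castration ratios were lower for longer leading contigs, with Spearman rho of -0.21 in spring and -0.30 in autumn across the 72 chaperones and -0.25 and -0.26 across the 10559 names, a description over names of the same 4 libraries. What contig length has to do with the chaperone ratios was not tested.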

How the data were processed

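The authors deposited estimated counts per contig for each library, which kallisto shares among similar contigs and which are not normalized, and TPM computed by their tool from count and effective length. The deposited match list gives, per the file headers, an e-value, a bit score (an alignment score), the percent identity and the percent coverage of each contig match to a collared flycatcher protein. Trimmomatic and kallisto were used, per the submitters' processing notes, with no versions; not given in the sources used here are the assembler and the search tool with its settings.

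Each contig kept its match of highest bit score at an e-value of at most 1e-05, and estimated counts were summed by protein name without isoform text and rounded. Names averaging at least 1 CPM were compared (10559), with TMM factors of 1.03 (spring castrated), 0.925 (autumn castrated), 1.01 (spring intact) and 1.04 (autumn intact), 0.5 CPM added, and exact binomial 95% intervals computed without the added value. A count of 0 allows 3 counts. Contigs with no such match, with 58.35% to 60.89% of the counts, were not used.

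The members, the classes and the gene lists were chosen with earlier results of these data known. Named were members 2-fold apart the same way or opposite ways in both pairs, the 5 per direction and pair with the farthest interval bound, the 10 highest in TPM and every TRiC, prefoldin, 90 kDa and small heat shock name; BAG 1 and 2, the remaining dnaJ names and the folding genes outside the rule were named after their values were seen. The summed markers of blood vessels (251 to 282 CPM), neurons (5740 to 7250 CPM) and microglia (184 to 594 CPM) overlapped between castrated and intact libraries, although within the neuron list 2 neurofilaments were 2-fold higher in castrated libraries in both seasons, and synaptotagmin-1 and microtubule-associated protein 2 lay below 0 in both; 2 astrocyte transporters summed to 371 (spring) and 346 CPM (autumn) in castrated and 1290 and 1248 CPM in intact libraries.

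Alternatives were DESeq2 1.42.0 size factors, library totals, other filters and added values, TPM, stricter matches (an e-value of at most 1e-20 and 70% identity), the most abundant contig, and an additive quasi-likelihood fit in edgeR 4.0.16 (R 4.3.3) with Benjamini-Hochberg adjustment. The rest was computed in Python 3.11.15 with scipy 1.17.1, and the steps were tested on simulated data.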

Additional observations from a re-analysis of the deposited data

Results flagged for a closer look

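The seasonal ratio of dnaJ homolog subfamily B member 13 had opposite directions in the 2 gonadal states. Spring over autumn, its log2 ratio was 1.09 in castrated libraries, on 82 spring and 53 autumn counts, and -1.01 in intact libraries, on 54 spring and 114 autumn counts. With 1 library in each group the difference between these ratios was not tested. Under the alternative settings the ratio stayed at 2-fold in 7 of 9 in castrated libraries and in 6 of 9 in intact libraries. It is the only chaperone of the 72 with a 2-fold ratio in opposite directions in the season pairs, and none had one in the castration pairs. The share of all names with such ratios was not counted, so whether these counts are unusual cannot be told.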

How the results depend on the processing

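No paired analysis was possible because each group is 1 library, so the replicate numbers name samples and pair nothing; for the same reason no library could be left out of a pair. Single ratios were followed through the alternatives for members named by the 2-fold, interval bound and TPM rules. Of their ratios that reached 2-fold, none changed direction under the alternatives run. The 2-fold ratios of prefoldin 2, BAG 2, dnaJ C17, C21 and C27, beta-3 and the folding genes outside the rule were not followed singly. Counts of chaperones that moved by more than 1.5 times were these. Castrated over intact in spring, TPM gave 8 higher (5 as reported), and a mean of at least 5 CPM gave 2 and 2 CPM added gave 3 lower (5). In both seasons a mean of at least 5 CPM gave 1 lower (2). The additive fit, here and below, counts names at an adjusted p under 0.05 at any size, not names 2-fold in both pairs. By that unlike rule it gave 15 higher (5) and 4 lower (2). Spring over autumn in intact libraries, 2 CPM added gave 1 and TPM 5 higher (2), and 2 CPM added gave 1, stricter matches 1 and TPM 6 lower (3). In castrated libraries a mean of at least 5 CPM, 2 CPM added and stricter matches each gave 1 higher (2), and library totals and a mean of at least 5 CPM each gave 4 lower (8). In both gonadal states TPM gave 2 higher (0) and 3 lower (1), and a mean of at least 5 CPM and the additive fit gave 0 lower. With library totals the median of all names was -0.18 (-0.01 as reported) in the autumn castration ratio and 0.16 (0.003) in the seasonal ratio of castrated libraries. There the chaperone median was 0.036 (-0.12 as reported) and that of the other folding genes 0.10 (-0.06), and in the autumn castration ratio the folding genes had 0.26 (0.43). The most abundant contig put the seasonal median of the folding genes in intact libraries at 0.027 (-0.03). A mean of at least 5 CPM compared 61 chaperones and 8970 names, and stricter matches compared 66 and 9824. TPM compared 76 chaperones and 11727 names, so its counts include the 4 names too scarce to be compared in CPM. Shares of all names under the alternatives were not counted, and the other causes were not tested. Depth limits the scarce names: 3 counts are 0.297 to 0.429 CPM.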
